A study of Homo sapiens with 6 samples.

Results

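The comparison set the peaks of the histone variant H3.3 against those of dimethylated lysine 79 of histone H3 (H3K79me2) in HEK293T, a human embryonic kidney cell line. It was made over 19451 protein-coding genes, each 1 kb or longer, on chromosomes 1 to 22 and X. For each gene the share of its bases under the peaks of each antibody was computed, and a peak was called an end peak when it lay within 1 kb of either annotated end of the gene. Coverage classes hold genes with at least 50% of their bases under the peaks of both antibodies, or of only H3.3 or only H3K79me2. End classes hold genes with an end peak of one antibody and no peak of the other in the gene or within 5 kb of it. A total of 4580 genes fell into at least 1 of the 5 classes that set the antibodies together or apart in this way. The series consists of 6 libraries from HEK293T cells for which the labels name no genotype change and no treatment. The H3.3 library (EMD/Millipore antibody) and the H3K79me2 library (CST antibody) are compared here, and lists for acetylated lysine 16 of histone H4 (H4K16ac, CST antibody) and for the variant H2A.Z (1 list with a CST antibody, H2AZ CST, and 1 with an Abcam antibody, H2AZ Abcam) served as further readouts. The remaining library is input chromatin. Each antibody had 1 library, so no spread between replicates exists, no p-value is given, and intervals cover counting error only. Peak lists carry no expression, so the identity of the cells rests on the label, and read depth per library is unknown.

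H3.3 is the form of histone H3 that cells place into chromatin outside DNA replication, through the chaperones HIRA and DAXX with ATRX. It is known for its presence at active promoters, enhancers and transcribed genes, where nucleosomes are exchanged. H3K79me2 is written by DOT1L, the main enzyme for this residue, which travels with factors of transcription elongation, and it is known for broad domains that begin behind the starts of transcribed genes. Both H3.3 and the replication-coupled H3 proteins carry lysine 79, so the variant and the mark may or may not lie on the same nucleosome, and peak lists do not separate these cases.

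The shapes of the lists differed. H3.3 gave 72287 peaks with a median width of 313 bp, covering 30.8 Mb, and 597 of them were wider than 2 kb. H3K79me2 gave 54476 peaks with a median width of 496 bp, covering 64.2 Mb, and 7165 of them were wider than 2 kb. The widest peak measured 8772 bp for H3.3 and 65794 bp for H3K79me2. Peaks wider than 2 kb held 5.53% of the H3.3 bases and 56.6% of the H3K79me2 bases, so H3.3 was a list of short sites and H3K79me2 largely one of domains.

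Promoters show the arrangement at single starts. Each stretch runs over 300 bases, 250 before the annotated start and 50 after it, taken from RefSeq (GRCh38.p14) and written along the gene's strand with every CG dinucleotide in capitals. The 4 stretches were chosen to show a start with both signals, a start with H3.3 and no H3K79me2, and a pair of starts with H3K79me2 and no H3.3. TMEM126A follows the rule for named genes, whereas the other three were picked after their values were seen, because their annotated start is the outer end of the gene.
MTA1: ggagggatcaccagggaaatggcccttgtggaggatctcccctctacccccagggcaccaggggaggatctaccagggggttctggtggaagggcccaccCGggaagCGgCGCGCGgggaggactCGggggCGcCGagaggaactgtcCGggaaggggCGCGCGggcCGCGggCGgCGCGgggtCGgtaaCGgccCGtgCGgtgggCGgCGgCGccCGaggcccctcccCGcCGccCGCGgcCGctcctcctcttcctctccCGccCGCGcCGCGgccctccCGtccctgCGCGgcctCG
HEMK2: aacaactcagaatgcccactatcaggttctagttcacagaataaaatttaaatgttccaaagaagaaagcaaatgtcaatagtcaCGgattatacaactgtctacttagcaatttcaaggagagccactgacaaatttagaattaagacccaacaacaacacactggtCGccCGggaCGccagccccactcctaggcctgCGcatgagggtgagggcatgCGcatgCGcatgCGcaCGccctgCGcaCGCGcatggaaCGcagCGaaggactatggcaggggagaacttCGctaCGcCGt
TMEM126A: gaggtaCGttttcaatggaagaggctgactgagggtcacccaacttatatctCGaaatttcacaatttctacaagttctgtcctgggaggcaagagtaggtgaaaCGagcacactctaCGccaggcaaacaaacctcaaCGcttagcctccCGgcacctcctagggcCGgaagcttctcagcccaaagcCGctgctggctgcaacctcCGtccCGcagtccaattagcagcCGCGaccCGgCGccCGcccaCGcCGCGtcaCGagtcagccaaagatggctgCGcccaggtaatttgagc
MKI67: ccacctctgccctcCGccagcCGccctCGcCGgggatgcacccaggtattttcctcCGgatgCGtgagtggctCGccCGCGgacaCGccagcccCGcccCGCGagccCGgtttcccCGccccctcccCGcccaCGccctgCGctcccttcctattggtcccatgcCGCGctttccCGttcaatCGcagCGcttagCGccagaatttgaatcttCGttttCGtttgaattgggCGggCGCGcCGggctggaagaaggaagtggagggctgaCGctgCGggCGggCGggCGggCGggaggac
The MTA1 stretch (chr14:105419577-105419876, plus strand) holds 39 CG dinucleotides, and H3.3 peaks cover 79 of its bases and H3K79me2 peaks 174. The HEMK2 stretch (chr21:28885318-28885617, minus strand) holds 17 CG dinucleotides, and H3.3 peaks cover 99 of its bases and H3K79me2 peaks 0. The TMEM126A stretch (chr11:85647717-85648016, plus strand) holds 20, with 0 bases under H3.3 and 196 under H3K79me2. That of MKI67 (chr10:128126374-128126673, minus strand) holds 36, with 0 bases under H3.3 and 294 under H3K79me2. A CpG-rich start thus occurred with and without H3.3.

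H3.3 and H3K79me2 met over a minority of their bases, and their peaks overlapped at the highest rate at gene ends. Both lists shared 11.1 Mb, which is 36.1% of the H3.3 bases and 17.3% of the H3K79me2 bases. Of the H3.3 peaks, 34.8% overlapped an H3K79me2 peak by at least 1 bp (95% exact interval 34.4 to 35.1%), and of the H3K79me2 peaks, 33.6% overlapped an H3.3 peak (33.2 to 34.0%). The shares differed by place. Among H3.3 peaks, 56.3% of those with a summit within 1 kb of a gene end overlapped H3K79me2, against 33% elsewhere in genes and 8.98% outside protein-coding genes. Among H3K79me2 peaks, 79.2% of those at a gene end overlapped H3.3, against 21.1% elsewhere in genes and 42.1% outside genes. Protein-coding genes held 72.9% of the H3.3 bases and 93.1% of the H3K79me2 bases, so H3.3 had the larger share away from genes.

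Most wide H3K79me2 domains contained some H3.3, but little of their length was H3.3. Of the 637 H3K79me2 peaks of at least 10 kb, 89.8% overlapped an H3.3 peak, whereas H3.3 covered 9.11% of their bases. Of the 27385 H3K79me2 peaks under 500 bp, 21.1% overlapped H3.3, and H3.3 covered 17.9% of their bases. A wider peak has more room for an overlap, and the share of bases does not share that feature. H3.3 peaks of at least 2 kb overlapped H3K79me2 in 70.4% of cases, and those under 500 bp in 30.0%.

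Inside gene bodies H3.3 was denser where H3K79me2 was present. In the 11552 genes of at least 10 kb with an annotated strand, and beyond 2 kb of either end, H3.3 peaks covered 9.72% of the part under H3K79me2 and 0.728% of the rest. In the 3594 of these genes with no H3K79me2 in the gene or within 5 kb, H3.3 covered 0.292% of the body. Across all 19451 genes the coverages by H3.3 and H3K79me2 had a Spearman correlation of 0.52, as a description only, since genes share libraries, depth and neighbours. Among the 10082 genes with some of each in the gene it was 0.58, and there it ran between 0.22 and 0.41 within bands of gene length, whereas over all genes it ran between 0.42 and 0.58 within the same bands.

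At starts that carried both, the summits lay close together, with H3K79me2 farther into the gene. This was measured in 6047 genes of at least 10 kb, using the strongest summit within 2 kb of the start. The H3.3 summit lay at a median of 159 bp downstream of the start (quartiles -228 and 434), and the H3K79me2 summit at 358 bp downstream (155 and 644). In the 6000 of these genes with an H3K79me2 summit in that range, it was the more downstream of the pair in 63.2% of cases, and H3K79me2 minus H3.3 had a median of 35 bp (quartiles -29 and 506). The small median and the wide upper quartile describe many coinciding summits and a tail of genes in which the H3K79me2 summit sat well inside.

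Few genes were mostly covered by either list. Coverage of at least 50% by both was found for 343 genes (1.76% of all), by H3.3 alone for 350 genes (1.8%) and by H3K79me2 alone for 1109 genes (5.7%). Of the 693 genes that H3.3 covered (3.56% of all), 49.5% were also covered by H3K79me2. Of the 1452 genes that H3K79me2 covered (7.46% of all), 23.6% were also covered by H3.3. These counts were set by the thresholds and move with them. CAMK2N2 (50.02%) and REPIN1 (50.05%) lay just inside the H3.3 threshold, and BGLAP (49.91%) and PGP (49.94%) just outside. RBBP7 and CCT6A (50% each) lay just inside the H3K79me2 threshold, and SPATA2 (49.98%) and POLR2H (49.99%) just outside.

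**Figure D1:**
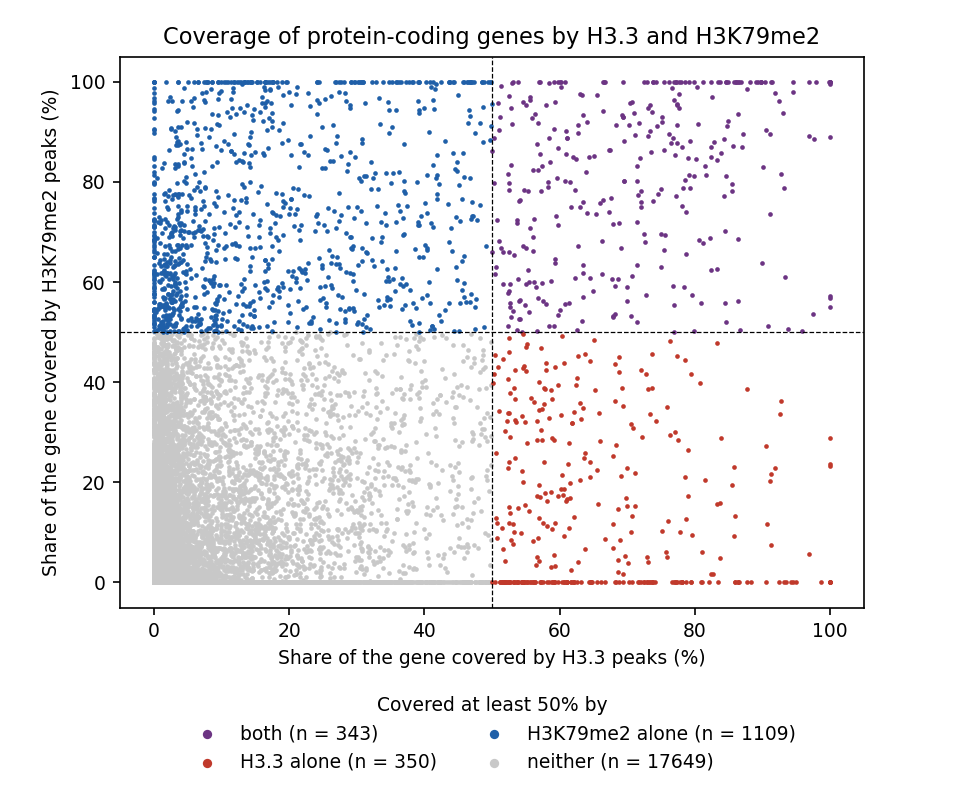
Share of each protein-coding gene covered by H3.3 peaks (x axis, percent) and by H3K79me2 peaks (y axis, percent), 1 point per gene, with dashed lines at 50%. The 343 genes covered by both, 350 by H3.3 alone and 1109 by H3K79me2 alone are coloured, and the H3.3 class has a row of 131 genes with no H3K79me2 base.

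Genes covered by H3.3 alone lacked H3K79me2 more often than genes covered by H3K79me2 alone lacked H3.3. Among the 350 genes covered by H3.3 alone, 131 (37.4%) had no H3K79me2 base and 70 (20%) had none within 5 kb either, whereas H3K79me2 covered at least 25% of 107 of them (30.6%). Among the 1109 genes covered by H3K79me2 alone, 91 (8.21%) had no H3.3 base and 35 (3.16%) had none within 5 kb, and H3.3 covered at least 25% of 308 of them (27.8%). Over all 19451 genes, 8109 had no H3K79me2 base and 6223 had no H3.3 base. The class covered by H3.3 alone thus lacked H3K79me2 bases at a rate near that of all genes. An H3.3 peak at an end was present in 94.1% of the genes covered by H3K79me2 alone, against 64.5% of all genes. An H3K79me2 peak at an end was present in 63.1% of the genes covered by H3.3 alone, against 55.4% of all genes.

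The covered genes were short and often crowded. Median gene length was 4334 bp in the class covered by both, 5245.5 bp for H3.3 alone and 7968 bp for H3K79me2 alone, against 25553 bp for all genes. Among genes of 1 to 5 kb, 7.32% were covered by both, 6.52% by H3.3 alone and 14.5% by H3K79me2 alone, and among the 3351 genes of at least 100 kb the counts were 0, 0 and 8. Genes with no annotated neighbour within 5 kb made up 6.71% of the class covered by both, 6.57% of H3.3 alone and 17.9% of H3K79me2 alone, against 21.7% of all genes. Peaks of a neighbour can enter such crowded genes. Among the 4230 genes with no neighbour within 5 kb, 0.544% were covered by both, 0.544% by H3.3 alone and 4.68% by H3K79me2 alone. Chromosome 19 held 69 of the 343 genes covered by both and 57 of the 350 covered by H3.3 alone. These were 4.8% and 3.97% of its 1437 genes, against 1.76% and 1.8% of all genes. Chromosome 16 held 58 and 52, which were 6.95% and 6.24% of its 834 genes. Chromosomes 13 and 18, with 336 and 268 genes, held none of either.

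H4K16ac, a mark the classes did not use and which the acetyltransferase KAT8 writes, was broad in the classes covered by H3.3 and narrow in genes covered by H3K79me2 alone. H4K16ac peaks covered a median of 40.7% of a gene in the class covered by both, 46.2% in H3.3 alone and 4.60% in H3K79me2 alone, against 0.497% over all genes. An H4K16ac peak at an end was present in 97.7% of genes covered by both (95.5 to 99%), in 97.4% of H3.3 alone (95.2 to 98.8%) and in 78.8% of H3K79me2 alone (76.3 to 81.2%), against 55% of all genes. H2A.Z did not follow this order: the CST list had an end peak in 94.2%, 85.1% and 92.0% of the same classes, against 70.7% of all genes. H4K16ac and H3.3 come from separate antibodies but from chromatin of one cell line, and differences in promoter composition ran beside them. Promoter GC content had medians of 71.0% for both, 68.7% for H3.3 alone and 64.3% for H3K79me2 alone, against 63.0% for all genes, and its part was not tested.

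MTA1, a subunit of the NuRD chromatin remodelling complex (chr14:105419827-105470729, 50903 bp), was among the longest genes covered by both. H3.3 covered 53.19% of it, H3K79me2 65.36% and H4K16ac 43.84%. Its strongest end peak had a fold enrichment, as the authors' peak caller gave it, of 33.6 for H3.3 and 184 for H3K79me2. BAHCC1, which encodes a chromatin protein with a BAH domain, was the longest at 70875 bp, with 76.87% under H3.3 and 50.09% under H3K79me2. CSNK1G2, a casein kinase gene, was covered 57.39% by H3.3 and 83.14% by H3K79me2, and PLXNB2, a receptor for semaphorins, 67.85% and 52.97%. REXO1, an RNA exonuclease homologue, was covered 50.05% by H3.3 and 66.02% by H3K79me2, and the uncharacterised LOC124900576 had 74.48% and 77.5%. In BAHCC1, MTA1, REXO1 and PLXNB2, for which strand was known, H3.3 lay at both ends and H3K79me2 only at the start.

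PIEZO1, a mechanically gated ion channel (chr16:88715338-88785220), had 68.77% of its length under H3.3 and 45.09% under H3K79me2. LAMA5, a laminin chain of basement membranes (chr20:62309065-62367312, 58248 bp), had 56.91% under H3.3, 19.52% under H3K79me2 and 60.63% under H4K16ac. Among the longest genes of H3.3 alone it had the lowest H3K79me2 share. PIP5K1C, a phosphoinositide kinase, had 52.17% under H3.3 and 32.23% under H3K79me2, and CACNA1H, a T-type calcium channel, 61.87% and 31.81%. SBNO2, a strawberry notch homologue, had 63.76% and 45.65%, and the cytoskeletal linker PLEC 50.19% and 39.79%. All 6 carried H3K79me2 at an end, so the long members of this class were not genes without H3K79me2.

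MSL2, a ubiquitin ligase of the MSL complex that guides H4K16 acetylation (chr3:136148917-136196335, 47419 bp), had 2.66% under H3.3 and 96.19% under H3K79me2. ANKRD11, a chromatin cofactor and the longest gene of this class at 222932 bp, had 13.31% under H3.3 and 85.86% under H3K79me2. KANSL1, the scaffold of the NSL complex that also acetylates H4, had 1.35% under H3.3 and 55.49% under H3K79me2, with neither antibody at its annotated outer ends. GATAD2A, a NuRD subunit, had 7.42% and 57.65%. EPC1, of the NuA4 acetyltransferase complex, had 0.895% and 51.06%, and GNB1, a G protein subunit, 1.69% and 54.5%. The highest H3.3 share among these genes was that of ANKRD11.

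**Figure D2:**
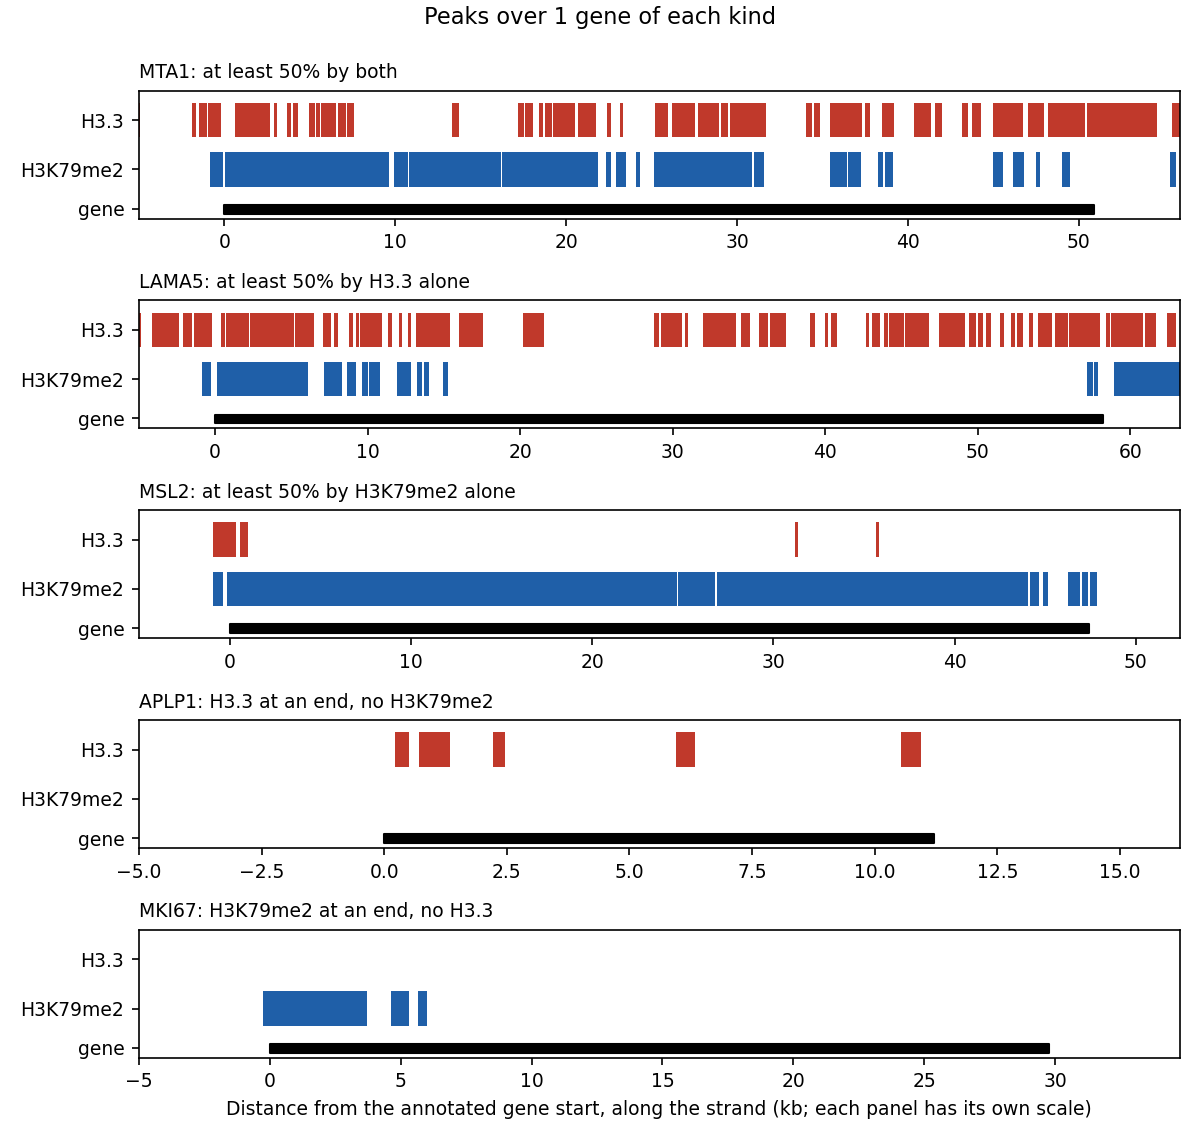
Peaks of H3.3 (upper row) and H3K79me2 (lower row) over 5 genes, with the gene as a black bar; the x axis is the distance in kb from the annotated start along the strand, on its own scale in each panel. MTA1 and LAMA5 carry many separate H3.3 peaks over most of their length, MSL2 a near-continuous H3K79me2 domain, APLP1 H3.3 peaks alone and MKI67 an H3K79me2 block at its start alone.

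The peaks of these genes differed in number and width. Within MTA1 and 5 kb on either side lay 41 H3.3 peaks, the widest of 4111 bp, and 19 H3K79me2 peaks, the widest of 9599 bp. LAMA5 had 49 H3.3 peaks and 13 H3K79me2 peaks. MSL2 had 4 H3.3 peaks covering 2163 bp and 9 H3K79me2 peaks covering 46680 bp, with one of 24805 bp. In MTA1 and LAMA5 the H3.3 peaks were thus more numerous than the H3K79me2 peaks. In MSL2 wide peaks made up most of the H3K79me2 coverage.

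Along the genes covered by both, the signals ran in opposite directions, with H3.3 higher toward the far end and H3K79me2 toward the start. In the 65 genes of at least 10 kb covered by both, H3.3 covered on average 51.0% of the first 10% of the gene and 77.4% of the last 10%. H3K79me2 in the same genes covered 88.4% of the first 10% and 37.5% of the last 10%. H3.3 was thus highest where H3K79me2 was lowest. H4K16ac followed H3.3, with 29.1% of the first 10% and 54.8% of the last 10%. In the 70 genes covered by H3.3 alone, H3.3 covered 59.0% of the first 10% and 70.5% of the last, and H3K79me2 55.2% and 10.6%. The 395 genes covered by H3K79me2 alone had H3.3 over 24.8% of the first 10%, 5.59% of the third 10% and 14.2% of the last, and H3K79me2 over 93.9%, 93.8% and 16.7%. In that class both signals were higher in the first 10% than in the last.

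Gene by gene, the far 50% of the gene carried more H3.3 than the 50% next to the start in 50 of the 65 genes covered by both (76.9%, 64.8 to 86.5%), and more H3K79me2 in 6 of the 65 (9.23%, 3.46 to 19%). In H3.3 alone these counts were 43 of 70 for H3.3 (61.4%, 49.0 to 72.8%) and 11 of 70 for H3K79me2. In H3K79me2 alone they were 123 of 395 for H3.3 (31.1%) and 20 of 395 for H3K79me2. Over all 11552 genes the far 50% had more H3.3 in 18.4% and more H3K79me2 in 3.84%. A far-end excess of H3.3 was therefore the usual pattern in the H3.3-covered genes and the less common one over all genes, while H3K79me2 leaned to the start throughout. The count for H3.3 alone has an interval that reaches below 50%, and coverage itself was used to choose these genes, so the numbers are descriptions.

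**Figure D3:**
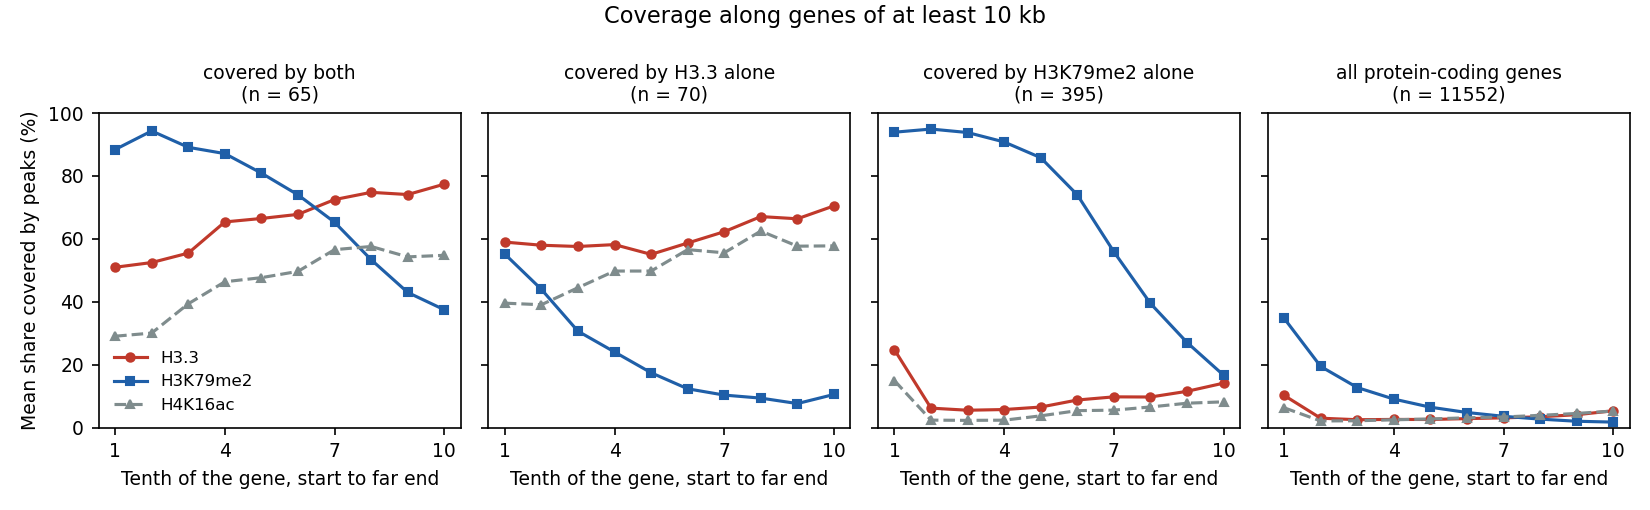
Mean share covered by H3.3, H3K79me2 and H4K16ac peaks (y axis, percent) in each successive 10% of the gene, start to far end (x axis), for genes of at least 10 kb with known strand in the 3 coverage classes and over all genes. In genes covered by both, H3.3 reaches 77.4% and H3K79me2 37.5% in the last 10%.

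At gene ends the antibodies mostly occurred together. Both had an end peak at 9675 genes (49.7%), and neither lay in or within 5 kb of 4369 genes (22.5%). H3.3 at an end with no H3K79me2 within 5 kb was found for 2169 genes (11.2%), and H3K79me2 at an end with no H3.3 within 5 kb for 714 genes (3.67%). The strongest end peaks of these genes were 2079 distinct H3.3 peaks and 648 distinct H3K79me2 peaks, since neighbours share peaks. Which class is the larger depends on how many peaks are kept: with the 10000 peaks of highest −log10 q in each list, 1064 genes had H3.3 without H3K79me2 and 3688 had H3K79me2 without H3.3.

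Solitary signals were weaker than shared ones. The strongest end peak had a median fold of 8.47 at genes with H3.3 without H3K79me2 (quartiles 6.46 and 11.8), against 13.3 for H3.3 at genes with both. For H3K79me2 the median was 18.8 at genes without H3.3 (10.7 and 33.7), against 42.0 at genes with both. Among genes with H3.3 at an end, the share with no H3K79me2 within 5 kb was 36.1% in the quartile with the lowest −log10 q and 4.24% in the quartile with the highest. Among genes with H3K79me2 at an end, the share with no H3.3 was 13.0% in the lowest quartile and 1.63% in the highest. A solitary signal thus went with a peak nearer the calling threshold, and the part of depth and threshold in these classes was not tested.

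H3K79me2 without H3.3 was a pattern of gene starts, whereas H3.3 without H3K79me2 also occurred at far ends. Of 1511 genes of at least 2 kb with known strand and H3.3 without H3K79me2, 70.9% had the H3.3 peak only at the start, 18.9% at both ends and 10.1% only at the far end. Of 594 such genes with H3K79me2 without H3.3, 96.3% had the peak only at the start, 2.19% at both ends and 1.52% only at the far end. From genes with H3.3 without H3K79me2, the nearest H3K79me2 peak lay at a median distance of 40309 bp. From genes with H3K79me2 without H3.3, the nearest H3.3 peak lay at a median distance of 40888.5 bp. Median gene length was 20197 bp for H3.3 without H3K79me2 and 32929 bp for H3K79me2 without H3.3, against 25553 bp for all genes.

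H4K16ac separated the end classes most. It had an end peak at 73.8% of the genes with H3.3 without H3K79me2 (71.9 to 75.6%) and at 25.2% of those with H3K79me2 without H3.3 (22.1 to 28.6%), against 78.7% of genes with both and 55% of all genes. H2A.Z went the other way: the CST list had an end peak at 78.9% (77.2 to 80.6%) and 89.9% (87.5 to 92.0%) of these classes, and the Abcam list at 79.9% and 92.4%, against 71.1% of all genes for Abcam. H2AZ CST without H4K16ac was the state of 20.6% of genes with H3.3 without H3K79me2, the same level as the 20.5% of all genes. It was the state of 65.7% of genes with H3K79me2 without H3.3. H4K16ac with H2AZ CST was the commonest state of genes with H3.3 without H3K79me2, at 58.3%, and of all genes, at 50.2%. It was the state of 24.2% of genes with H3K79me2 without H3.3. With end classes set by the 10000 strongest H3.3 and H3K79me2 peaks, the H4K16ac shares were 83.7% and 64.3%, a gap of 19.5 percentage points in place of 48.6. Those classes held 1064 and 3688 genes in place of 2169 and 714, so they are not the same sets of genes. The gap was 41.4 points among genes with no neighbour within 5 kb, with 71.8% and 30.4%. For H2AZ CST the shares were 94.7% and 97.6% with the strongest peaks, a gap (H3.3 without H3K79me2 minus H3K79me2 without H3.3) of -2.90 points in place of -11.0, and 83.1% and 88% among genes with no neighbour, a gap of -4.88 points.

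**Figure D4:**
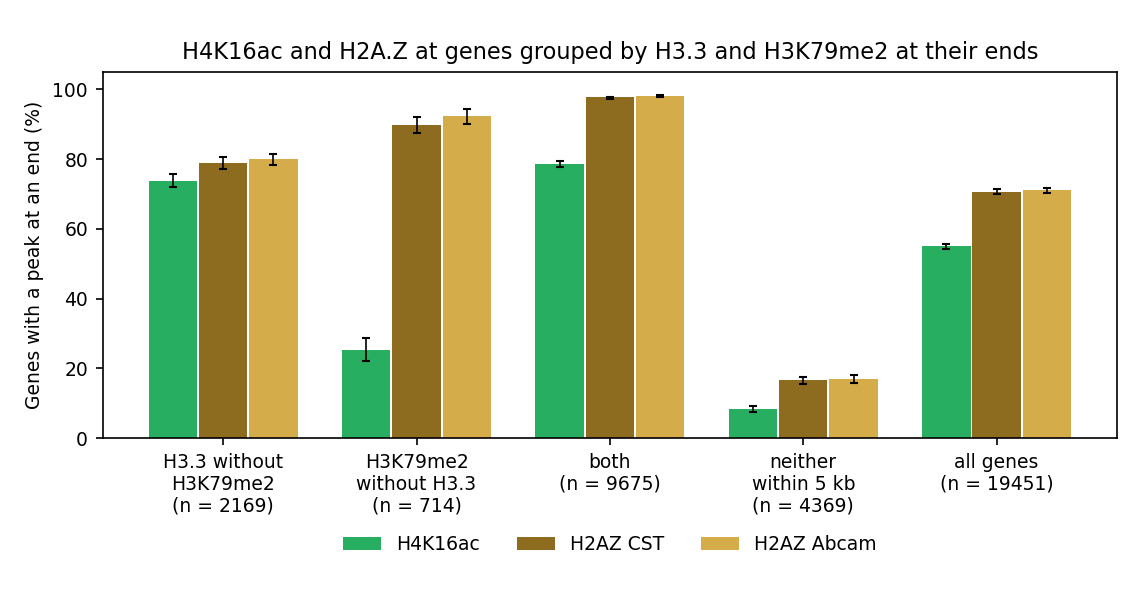
Share of genes with an end peak of H4K16ac, H2AZ CST and H2AZ Abcam (y axis, percent) in 4 groups set by H3.3 and H3K79me2 at gene ends, and over all genes; bars are shares and error bars exact 95% intervals for counting error. H4K16ac stands at 73.8% with H3.3 without H3K79me2 and at 25.2% with H3K79me2 without H3.3.

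Promoter sequence differed less between these classes than from genes with neither signal. The median number of CG dinucleotides in the 300-base promoter was 20 for H3.3 without H3K79me2 and 23 for H3K79me2 without H3.3, against 28 for genes with both, 4 for genes with neither and 22 over all genes. The motif TATAAA, searched on both strands, was present in 9.38% of promoters with H3.3 without H3K79me2 and in 4.67% of those with H3K79me2 without H3.3, against 20.5% for genes with neither and 8.99% of all 15413 promoters. The 153 genes with H3.3 only at the far end had a median of 7 CG dinucleotides at their start, and the 1358 with H3.3 at the start had 22. The TMEM126A, HEMK2, MTA1 and MKI67 stretches shown above hold no TATAAA.

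The strongest H3.3 end peaks without H3K79me2 belonged to genes of varied function. CD7, a surface protein of T cells (chr17:82314873-82317608), lay wholly under H3.3 (100%) with an end peak of 54.3-fold and no H3K79me2. APLP1, an amyloid precursor-like protein of neurons (chr19:35868574-35879792), had 46.5-fold at an end and 17.1% of its length under H3.3. RAP1GAP2, a regulator of the GTPase Rap1, had 36.5-fold, and HEMK2, a protein methyltransferase, 34.6-fold, with H3.3 over 0.0985% of its 309770 bp. PHF11, a PHD finger protein, had 42.6-fold and LGALS1, which encodes galectin-1, 30.0-fold. The olfactory receptor gene OR2V2 had 21.8-fold at an end, with 0 bases of the gene itself under H3.3. NHEJ1, a DNA end-joining factor, and its neighbour SLC23A3, a member of the ascorbate transporter family, shared one peak of 34.9-fold. H4K16ac and H2AZ CST had an end peak at all 9 of these genes.

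The strongest H3K79me2 end peaks without H3.3 also belonged to genes of varied function. TMEM126A, an assembly factor of respiratory complex I (chr11:85647967-85656542), had an end peak of 126-fold, and 21.83% of the gene was under H3K79me2. MKI67, which encodes the proliferation antigen Ki-67 (chr10:128096659-128126423), had 142-fold and 16.06%. Neither had an H3.3 base. NET1, an exchange factor for RhoA, had 133-fold, and MED4, a Mediator subunit, 93.6-fold. RNF149, a ubiquitin ligase, had 113-fold and SFT2D1, a vesicle transport protein, 90.0-fold. ATP5F1C, a subunit of ATP synthase, and its neighbour KIN, a DNA-binding protein, shared one peak of 82.4-fold. H2AZ CST had an end peak at all of these genes. H4K16ac had one at all of them but TMEM126A, against 25.2% of the whole class, so these strongest examples differed from their class in H4K16ac.

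Genes for H3.3 itself and for its chaperones carried both signals at an end, in 12 of 12 cases (49.7% over all genes). H3-3A, 1 of the pair of genes for H3.3, had 14.02% under H3.3 and 83.81% under H3K79me2, and H3-3B, the other, 29.53% and 72.74%. The chaperone DAXX had 24.26% and 71.74%, and its partner ATRX 0.304% and 16.35%. HIRA, the chaperone of the transcription-linked route, had 0.428% under H3.3 and 18.3% under H3K79me2. None of the list was covered by H3.3, and 5 were covered by H3K79me2 alone (5.7% over all genes).

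DOT1L, the H3K79 methyltransferase (chr19:2163933-2232578), was covered 49.09% by H3.3 and 67.29% by H3K79me2, with H4K16ac over 43.29%, so it lay just short of the class covered by both. Of 28 genes for DOT1L and elongation factors, 24 had both signals at an end (85.7%, against 49.7% of all genes). All 28 had H3K79me2 at an end, against 55.4% of all genes. CDK9, the kinase of the elongation factor P-TEFb, had 39.02% under H3.3 and 72.07% under H3K79me2, and NELFA, of the pausing factor NELF, 27.65% and 73.35%. RTF1, NELFE and SUPT4H1, which also act in pausing and elongation, had H3K79me2 at an end of 119-fold, 15.9-fold and 14.1-fold with no H3.3 within 5 kb (3 of 28, 10.7%, against 3.67% of all genes). None of the list had H3.3 without H3K79me2.

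Ribosomal protein genes stood under H3K79me2 and in part under H3.3. Of 78 cytosolic ribosomal protein genes, 9 were covered by both (11.5%, against 1.76% of all genes), none by H3.3 alone and 54 by H3K79me2 alone (69.2%, against 5.7%). These genes are short, with a median of 4905 bp, and among all genes of 1 to 5 kb 14.5% were covered by H3K79me2 alone. RPS15 was covered 94.48% by H3.3 and 100% by H3K79me2, RPL35 50.36% and 88.76%, and RPL12 36.99% and 78.27%. Splicing factor genes had a longer median of 16945 bp. Of 49, 2 were covered by both (4.08%, against 1.76% of all genes) and 29 by H3K79me2 alone (59.2%, against 5.7%). HNRNPD had 3.37% under H3.3 and 94.18% under H3K79me2, SRSF2 15.68% and 100%, and PTBP1, a repressor of exon inclusion, 75.2% and 91.9%.

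MYC and immediate early genes had the highest share covered by both among the lists, at 6 of 26 (23.1%, against 1.76% of all genes), again with a short median length of 5370 bp. The AP-1 subunit genes JUN and JUND had 57.91% and 55.68% under H3.3 and 95.3% and 96.89% under H3K79me2. In the same list EGR3, a zinc finger factor, and CCN2, a secreted matrix protein, had H3.3 at an end of 13.3-fold and 8.29-fold and no H3K79me2. They were 2 of 26 (7.69%), below the 11.2% of all genes. The glycolytic genes ALDOA and GAPDH were also covered by both, with 63.33% and 62.02% under H3.3 and 97.28% and 84.98% under H3K79me2. Among heat shock genes, 9 of 30 were covered by H3K79me2 alone (30%, against 5.7% of all genes), including HSPD1 (13.68% under H3.3, 75.92% under H3K79me2). HSPA6 and HSPA2 had H3.3 without H3K79me2 (2 of 30, 6.67%, also below the 11.2% of all genes).

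The HOX genes, which set position along the body axis, had 26 of 39 members covered by H3K79me2 alone (66.7%, against 5.7% of all genes). They lie in clusters, and those 26 genes had 10 distinct strongest H3K79me2 end peaks. HOX genes are short, with a median of 3785 bp, and 14.5% of all genes of 1 to 5 kb were in that class. Both signals lay at an end of 36 of 39 HOX genes (92.3%, against 49.7% of all genes), and their median H3.3 coverage was 28.5%. HOXC10 was covered 26.76% by H3.3 and 100% by H3K79me2. HOXD1 and HOXB1, at the edge of their clusters, had H3.3 at an end of 23-fold and 10.1-fold with no H3K79me2 within 5 kb. They were 2 of 39 (5.13%), below the 11.2% of all genes. Among Polycomb complex genes, 3 of 30 were covered by both (10%, against 1.76% of all genes) and 6 by H3K79me2 alone (20%, against 5.7%). CBX6 had 51.1% under H3.3 and 68.23% under H3K79me2, and EZH2 0.742% and 50.58%.

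Most cell cycle genes had both signals at an end, and a minority had H3K79me2 without H3.3. Both lay at an end of 25 of 30 mitotic genes (83.3%) and 28 of 38 replication genes (73.7%), against 49.7% of all genes. H3.3 without H3K79me2 was found at none of the mitotic or the replication genes, against 11.2% of all genes. H3K79me2 without H3.3 was found at 5 of 30 mitotic genes (16.7%) and 6 of 38 replication licensing and fork genes (15.8%), against 3.67% of all genes. MKI67 and the kinesin gene KIF14 (42.0-fold at an end) were the strongest of the mitotic list, and RFC5, of the clamp loader (69.8-fold), and RPA1, of the single-strand binding complex (66.1-fold), of the replication list. Among only the 10000 strongest peaks per list, the counts were 17 of 30 (56.7%) and 18 of 38 (47.4%), against 19% of all genes. The lists stood above the share of all genes under both settings. Proteasome subunits had 3 of 31 members with H3K79me2 without H3.3 (9.68%), PSMD2 and PSMA2 among them. Splicing factors had 2 of 49, SF3B1 and SNRPE, and this 4.08% was near the 3.67% of all genes.

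Zinc finger genes of chromosome 19, many of them KRAB repressors of transposable elements, had 8 of 246 members with H3.3 without H3K79me2 (3.25%, against 11.2% of all genes) and 37 with H3K79me2 without H3.3 (15.0%, against 3.67%). The 37 genes had 37 distinct H3K79me2 peaks, with ZNF14 at 35.2-fold and ZNF607 at 33-fold the strongest. On the 10000 strongest peaks per list, 48 of 246 had H3K79me2 without H3.3 (19.5%), close to the 19% of all genes. The excess over all genes was thus seen with every deposited peak and not with the strongest ones.

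H3.3 without H3K79me2 was more frequent in 4 lists of tissue-restricted genes than over all genes, and near the share of all genes in liver and keratin genes. It was found at 9 of 28 kidney tubule and podocyte genes (32.1%), 9 of 34 lymphocyte and blood genes (26.5%), 6 of 34 neuronal genes (17.6%) and 26 of 95 potassium channel genes (27.4%), against 11.2% of all genes. The liver list had 2 of 20 such genes (10%) and the keratin list 3 of 22 (13.6%). H3.3 lay at an end of only 6 liver genes (30%) and 4 keratin genes (18.2%). That share was 50% for kidney, 38.2% for lymphocyte, 64.7% for neuronal and 56.8% for potassium channel genes, against 64.5% of all genes. The neuronal list was not repeated under other settings. H3K79me2 without H3.3 was found at no gene of any of these lists, against 3.67% of all genes. Lists of 20 to 34 genes are too small to show a lack at that share. NPHS1, which encodes nephrin of the kidney filter, had 11.2-fold for H3.3 at an end. CD4, the T helper co-receptor, had 13.3-fold, SYT1, a synaptic vesicle protein, 20.9-fold, and the channel genes KCNJ4 and KCNK7 16.6-fold and 22.9-fold. On the 10000 strongest peaks per list, the counts were 1 of 28 (3.57%) for kidney genes, 2 of 34 (5.88%) for lymphocyte genes and 17 of 95 (17.9%) for potassium channels, against 5.47% of all genes. Potassium channel genes stood well above all genes under both settings. With the strongest peaks the lymphocyte and kidney lists did not stand clearly apart from all genes, on counts of 2 and 1.

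Olfactory receptor, keratin and liver genes mostly had neither signal. Neither lay within 5 kb of 238 of 241 olfactory receptor genes (98.8%, against 22.5% of all genes), and the 2 with H3.3 without H3K79me2 were OR2V2 and OR1F1. Neither lay within 5 kb of 15 of 22 keratin genes (68.2%) or 12 of 20 liver genes (60%). Clustered protocadherin genes, which encode adhesion molecules of neurons, had H3.3 without H3K79me2 at 23 of 53 members (43.4%, against 11.2% of all genes). These 23 rested on 3 distinct H3.3 peaks, since annotated genes of a cluster share an end. That count therefore describes 3 sites.

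**Figure D5:**
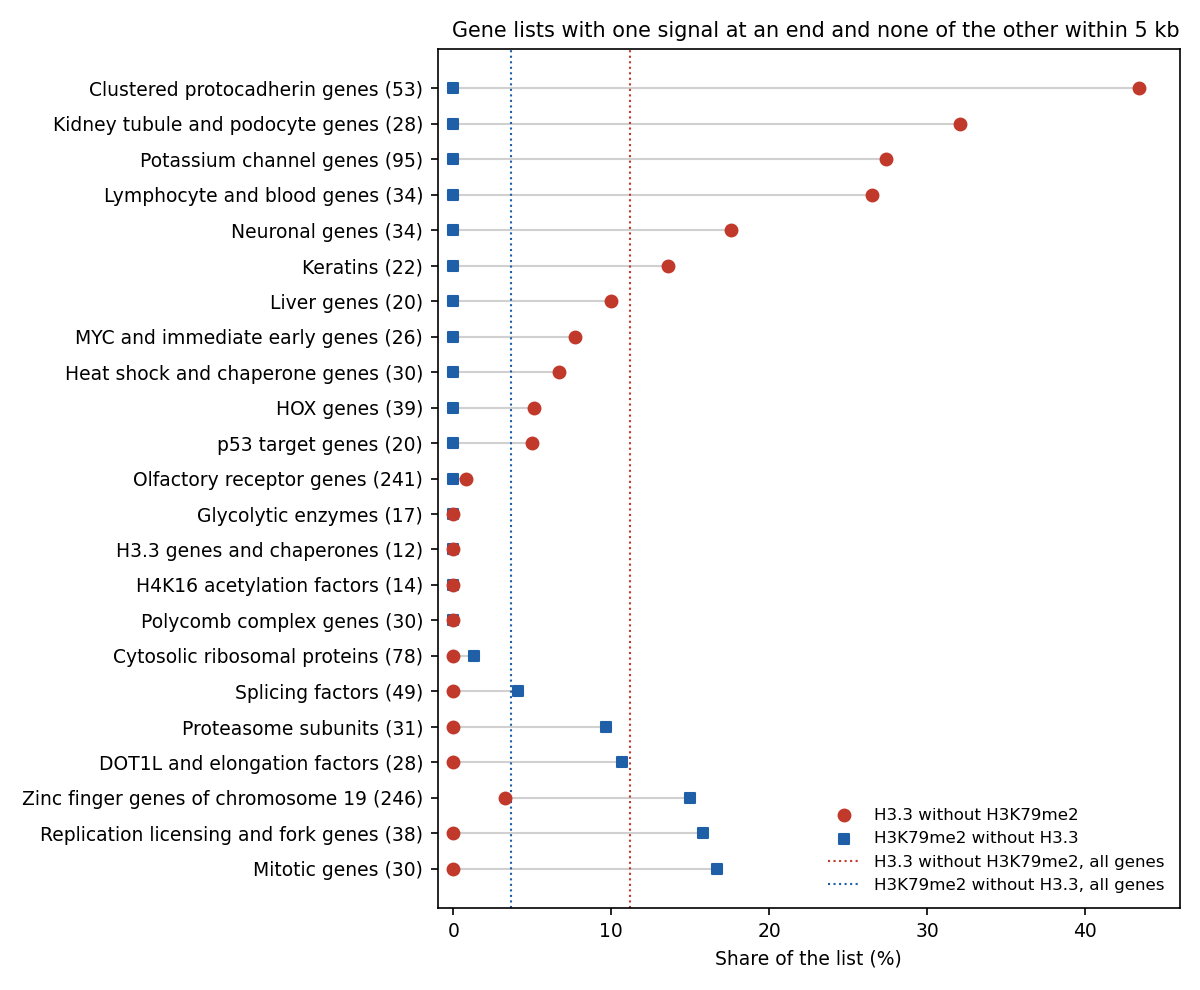
Share of 23 gene lists (x axis, percent; list size in brackets) with H3.3 at an end and no H3K79me2 within 5 kb (circles) and with H3K79me2 at an end and no H3.3 within 5 kb (squares); dotted lines mark all genes, 11.2% and 3.67%. Kidney, lymphocyte, neuronal and potassium channel lists lie right of the line for H3.3, and cell cycle and zinc finger lists right of that for H3K79me2. The 23 protocadherin genes rest on 3 peaks.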

How the data were processed

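ChIP-seq of HEK293T cells had been turned into peak lists by the authors, from 1 library per antibody. The submitters' processing notes list MACS2 2.1.0, Bowtie 1.1.2, Trimmomatic 0.33, bcl2fastq 2.17 and build hg38, without roles. Tool settings, the handling of duplicates and how the input was used are not given in those notes. The deposited fold enrichment (a linear ratio) and −log10 q-value are the authors' values per peak and served only to describe, rank or filter peaks. The deposited −log10 p-value was not used. The deposited score and summit offset are the caller's, and only the offset was used. The lowest −log10 q was 2.05 for H3.3 and 2.06 for H3K79me2.

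Peaks on chromosomes 1 to 22 and X were intersected with RefSeq genes (GRCh38.p14, the assembly of hg38); 27 H3.3 and 5 H3K79me2 peaks on other sequences were left out. Strand and the 300-base promoter came from RefSeq for 15413 genes; where a gene had several promoters, the one nearest an outer end was taken. Overlap meant at least 1 bp. Shares have exact Clopper-Pearson intervals at 95%, which cover counting error only. Depth per library is unknown. The coverage code was tested on simulated data with known answers and made 0 errors. Python 3.11.15, pandas 2.3.3, numpy 2.4.6, SciPy 1.17.1 and matplotlib 3.10.9 were used.

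Named genes were the 6 longest of each coverage class, the 2 on each side of a threshold, the 8 strongest of each end class and up to 2 members of each list in a class; a few that the rule selects are not reported here. The genes and the 24 lists were chosen with earlier results of these data known. The list of replication-dependent histone genes matched only 9 genes of at least 1 kb. Of these, 1 was covered by both, and the list is not described further. Members of the list of H4K16 acetylation factors stand with the longest genes. Among p53 target genes, 1 of 20 had H3.3 without H3K79me2 (5%, against 11.2% of all genes). Alternatives were the 10000 strongest peaks, −log10 q of at least 5, other thresholds and windows, longer genes and genes without neighbours.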

Additional observations from a re-analysis of the deposited data

How the results depend on the processing

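No paired analysis was possible because each antibody had 1 library. Results are given in the order in which the report describes them. With the 10000 strongest peaks per list (lowest −log10 q 27.3 for H3.3 and 46.8 for H3K79me2), 46.5% of H3.3 peaks overlapped H3K79me2 and 38.7% of H3K79me2 peaks overlapped H3.3, 128 genes were covered by both and 121 by H3.3 alone, and 1064 genes had H3.3 without H3K79me2 and 3688 H3K79me2 without H3.3, which turned the order of these classes round (2169 and 714 with every peak). With −log10 q of at least 5 the shares were 35.8% and 36.4%, and with at least 50% of the peak overlapped they were 32.4% and 19.1%. A coverage threshold of 25% gave 999 genes covered by both, 854 by H3.3 alone and 2301 by H3K79me2 alone, a threshold of 75% gave 102, 116 and 545, and genes of at least 5 kb gave 150, 178 and 726. Genes with no neighbour within 5 kb (4230 genes) gave 23, 23 and 198 in the coverage classes and 514 and 191 in the end classes; both restrictions test fewer genes. The cause of the other changes was not tested. Of the 38 alternative values of these counts and shares, the other 14 stayed within 1.5 times the reported count or within its interval.

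The comparisons of H4K16ac, H2A.Z and 6 gene lists were repeated under alternatives chosen after seeing the data, and the differences in H4K16ac and H2A.Z kept their sign. Of 50 such values, 18 moved, by at least 5 percentage points for a difference or over 1.5 times for a count. Lymphocyte genes without neighbours had H3.3 without H3K79me2 at 1 of 10 (10%), against 12.2% of all genes without neighbours. The gap in H2AZ CST between the end classes was -2.90 percentage points with the 10000 strongest peaks and -4.88 among genes without neighbours, in place of -11.0. Depth is unknown, so an absent peak is not evidence of absent protein or mark; a single library per antibody, unknown calling settings and the use of gene ends in place of mapped transcription starts are the other limits.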

Other observations

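Some pairs of genes within a list fell on opposite sides. HCFC1, a subunit shared by several chromatin complexes including the NSL complex, was covered by both, with 53.12% under H3.3 and 54.31% under H3K79me2, whereas KANSL1 of the same complex had 1.35% and 55.49%. Among glycolytic genes, PFKL had 62.51% under H3.3 and 40.84% under H3K79me2, and PGAM1 7.54% and 60.68%. GRIN1, a glutamate receptor subunit, was the neuronal gene covered by H3.3 alone, with 59.35% under H3.3 and 3.22% under H3K79me2, and CORO1A, a coronin of leukocytes, had 70.52% and 10.16%.

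The overlap of peaks varied between chromosomes. The share of H3.3 peaks that overlapped H3K79me2 ran between 25.6% on chromosome 22 and 49.1% on chromosome 18. The share of H3K79me2 peaks that overlapped H3.3 ran between 23.5% on chromosomes 13 and 18 and 62.1% on chromosome 19, where 8307 H3.3 peaks and 3398 H3K79me2 peaks lay.

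At far ends, the 153 genes with H3.3 only there and no H3K79me2 had H4K16ac at the far end in 62.7% of cases and at the start in 27.5%. The 1358 genes with H3.3 at the start and no H3K79me2 had H4K16ac at the start in 68.3% and at the far end in 24.4%.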
